A study of Mus musculus with 42 samples.

Results

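Platelets carry RNA that they inherit from megakaryocytes, and 10 genes known chiefly from these cells were followed through every library of a study of the arterial intima. The genes were chosen by name from the 21674 genes of its table: Pf4, Ppbp, Itga2b, Gp1ba, Gp1bb, Gp9, Gp6, Treml1, Tubb1 and Clec1b. In the study, RNA was flushed from the intima of mouse carotid arteries after partial ligation of the left carotid artery, which lowers its flow, while the right carotid artery of the same mouse keeps high flow. Pools of 3 to 5 arteries were sequenced at 48 hr or 7 d, and cultured aortic endothelium was sequenced beside them. The values are RSEM expected counts, rounded for tests, and CPM, the same counts scaled to the library total, which compare libraries.

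At 48 hr the mice were C57BL/6J males of 6 to 7 weeks. Untreated mice gave 3 pools of low-flow, 3 of high-flow and 3 of sham-operated arteries. Other mice received anti-GPIba antibody against platelets (50 µg), anti-Gr1 antibody against granulocytes (25 µg), control IgG, clodronate liposomes against macrophages (150 µL) or PBS liposomes. Each treatment gave 2 pools of low-flow arteries, and IgG and PBS liposomes also gave 2 pools each of high-flow arteries. A further PBS and a further clodronate pool were sequenced with the untreated pools. At 7 d, Rbfox2 EC-KO mice carried Rbfox2 lox/lox, the reporter Rosa26-mTmG and the inducible endothelial transgene Cdh5(PAC)-CreERT2, and littermate controls carried Rosa26-mTmG and Rbfox2 lox/lox without the Cre. These mice, of both sexes and 2 to 7 months old, gave 3 low-flow and 2 high-flow libraries per genotype. The cultures gave 1 library each. An aortic endothelial line immortalized by TetOn-SV40, with SV40 switched off, was left untreated or given 10% plasma, platelets with macrophages (monocytes from bone marrow), or all of these for 48 hr. The 3 primary cultures were sorted eGFP+ cells after 5 days and sorted Rbfox2 control and EC-KO cells after 7 days.

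Between 4064477 and 6794904 counts fell on genes in the 11 artery libraries of 100 bp reads, between 12286104 and 19035957 in the 14 other libraries at 48 hr, between 10318685 and 18633538 in the 10 at 7 d and between 4989843 and 16394043 in the 7 cultures. By the run names in the table, low-flow and high-flow libraries of treated mice were sequenced in different sets of runs, so flow and run cannot be told apart there. At 7 d the high-flow libraries shared a set of runs, while the low-flow libraries were spread over this set and others. Low-flow EC-KO and control libraries numbered 4 were in different sets, as were those numbered 5. Flow and run are thus partly mixed at 7 d. Rbfox2 had 18.4 to 38.5 CPM in the 7 d controls and 1.14 to 7.30 CPM in the EC-KO libraries. Each of the 11 endothelial markers listed had counts in every artery library. The study calls its flow comparisons biologically independent, but the labels do not say which mice entered which pool, and p-values measure the spread between pools.

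Platelets have no nucleus and bind exposed matrix, then recruit one another and leukocytes. Pf4 and Ppbp encode chemokines of the alpha granules. Gp1ba, Gp1bb and Gp9 encode chains of the GPIb-IX-V complex, the receptor for von Willebrand factor, and Gp1ba encodes the chain that the depleting antibody binds. Itga2b encodes the alpha chain of the fibrinogen receptor, Gp6 a collagen receptor, Clec1b the podoplanin receptor CLEC-2, Treml1 a receptor of the alpha granule membrane and Tubb1 the beta-1 tubulin of the marginal band.

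The promoters of Ppbp, Tubb1 and Gp1ba are shown because the RNA of the first 2 was lower and that of Gp1ba higher after anti-GPIba. That of Pf4 is shown beside them as the neighbour of Ppbp, although Pf4 did not pass the test there. They are RefSeq sequences on GRCm38.p6 from 250 bases before to 50 after the start site, on the strand of the gene. Capitals mark GATA letters (AGATAA or AGATAG, and the same starting with T, TGATAA or TGATAG) and ETS letters (AGGAAG and, beginning with C, CGGAAG), searched on both strands. Factors of both families act in megakaryocytes.
Ppbp, chr5:90768268-90768567, plus strand: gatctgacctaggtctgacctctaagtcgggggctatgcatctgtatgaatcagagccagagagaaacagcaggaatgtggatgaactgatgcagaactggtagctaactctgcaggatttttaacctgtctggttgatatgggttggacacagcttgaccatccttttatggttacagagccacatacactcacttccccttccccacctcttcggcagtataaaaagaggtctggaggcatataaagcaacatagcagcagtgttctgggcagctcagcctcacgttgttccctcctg
Tubb1, chr2:174450345-174450644, plus strand: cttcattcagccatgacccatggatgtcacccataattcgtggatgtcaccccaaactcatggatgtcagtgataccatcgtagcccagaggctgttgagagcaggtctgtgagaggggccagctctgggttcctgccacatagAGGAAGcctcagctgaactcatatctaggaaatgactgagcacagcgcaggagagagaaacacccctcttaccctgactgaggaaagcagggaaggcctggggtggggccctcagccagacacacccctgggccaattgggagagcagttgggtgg
Pf4, chr5:90772185-90772484, plus strand: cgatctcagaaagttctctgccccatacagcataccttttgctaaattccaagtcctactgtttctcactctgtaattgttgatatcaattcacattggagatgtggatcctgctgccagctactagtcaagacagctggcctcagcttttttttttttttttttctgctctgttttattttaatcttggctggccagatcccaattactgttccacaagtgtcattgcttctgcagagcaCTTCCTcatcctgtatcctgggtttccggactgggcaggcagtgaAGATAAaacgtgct
Gp1ba, chr11:70638872-70639171, plus strand: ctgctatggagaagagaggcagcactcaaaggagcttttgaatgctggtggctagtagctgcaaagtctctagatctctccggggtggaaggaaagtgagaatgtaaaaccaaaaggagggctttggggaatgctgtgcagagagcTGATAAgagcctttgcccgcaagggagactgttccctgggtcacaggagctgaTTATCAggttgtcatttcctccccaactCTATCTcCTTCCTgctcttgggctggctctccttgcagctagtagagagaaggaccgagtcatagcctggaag
In the promoter of Ppbp neither set of letters was found. That of Tubb1 held ETS letters 106 bases before the start site, and that of Pf4 held ETS letters 9 bases before and GATA letters 36 bases after it. In Gp1ba, GATA letters began 104, 51 and 23 bases before the start site and ETS letters 16 bases before it. GATA letters were found in the promoters of 5 of 10 genes and ETS letters in 6 of 10, beside 29.8% and 46.5% of all 32851 RefSeq mouse promoters of this length. A match describes letters and was not tested for binding.

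On mm9, Ppbp (chromosome 5, 91197544 to 91199086) and Pf4 (chromosome 5, 91201461 to 91202407) are neighbours on the plus strand, 2375 bases apart. Gp1ba (chromosome 11, 70452624 to 70456328), Gp9 (chromosome 6, 87728130 to 87729756), Tubb1 (chromosome 2, 174276196 to 174283383), Treml1 (chromosome 17, 48499241 to 48506499) and Clec1b (chromosome 6, 129347315 to 129359353) are also on the plus strand. Itga2b (chromosome 11, 102314611 to 102331436), Gp6 (chromosome 7, 4320315 to 4349346) and Gp1bb (chromosome 16, 18620412 to 18622496) are on the minus strand. Gp1bb shares 593 of its 1881 exonic bases with Sept5, a septin gene of the same strand, and its counts were fractions of reads in many libraries, so its level is uncertain. Clec1b shares 184 of 5103 exonic bases with Clec9a on the same strand, and lies within the span of Clec1a on the opposite strand without shared exonic bases.

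Per length of transcript (FPKM, from the count, the effective length and the library total), Pf4 had the highest median over the 35 artery libraries, at 14.4 FPKM (range 1.53 to 75.2). Ppbp followed with 5.79 FPKM (0.182 to 27.1) and Gp1ba with 4.04 FPKM (0 to 7.42). The ranges of these neighbours in the order overlap widely. Lower median levels, in FPKM, were found for Gp9 (2.31), Itga2b (1.55), Clec1b (1.26), Tubb1 (0.458), Gp1bb (0.205) and Treml1 (0.201), and the median of Gp6 was 0. In raw counts, Gp6 never passed 7 in an artery library and had 0 in 20 of 35, Treml1 had 0 in 7 and Tubb1 in 6. Treml1 reached 10 counts in 4 of the 35 libraries and Tubb1 in 12, so small differences of these genes are not detectable at this depth. A count of 0 allows up to 3 counts, and floors and intervals here cover counting error only.

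In untreated mice at 48 hr, which addressed the effect of low flow on the intima, the receptor gene Gp1ba was lower at low flow, while the chemokine Pf4 overlapped between the groups. Gp1ba had 3.09, 2.70 and 7.72 CPM in low-flow pools A, B and C (21, 12 and 44 counts) and 17.1, 15.3 and 17.0 CPM in high-flow pools D, E and F (73, 93 and 77 counts). In sham pools G, H and I it had 17.8, 19.2 and 10.4 CPM (75, 78 and 51 counts). All 3 low-flow pools lay below the other 6. Low-flow pools averaged 4.51 ± 2.79 CPM (SD, n = 3), those of high flow 16.5 ± 1.03 (SD, n = 3), and sham pools 15.8 ± 4.69 (SD, n = 3). The log2 fold-change was −1.27 against high flow (SE 0.25, adjusted p = 0.00187 by edgeR's quasi-likelihood test) and −1.16 against sham (SE 0.29, adjusted p = 0.0148 by edgeR). With total-count scaling, the scale of the CPM above, these were −1.86 and −1.80. Against high flow the call held in all 10 alternatives, with adjusted p from 0.000409 to 0.00987. Against sham it was lost without pool A, B or G, with adjusted p of 0.0557, 0.0522 and 0.0569 by edgeR.

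**Figure D1:**
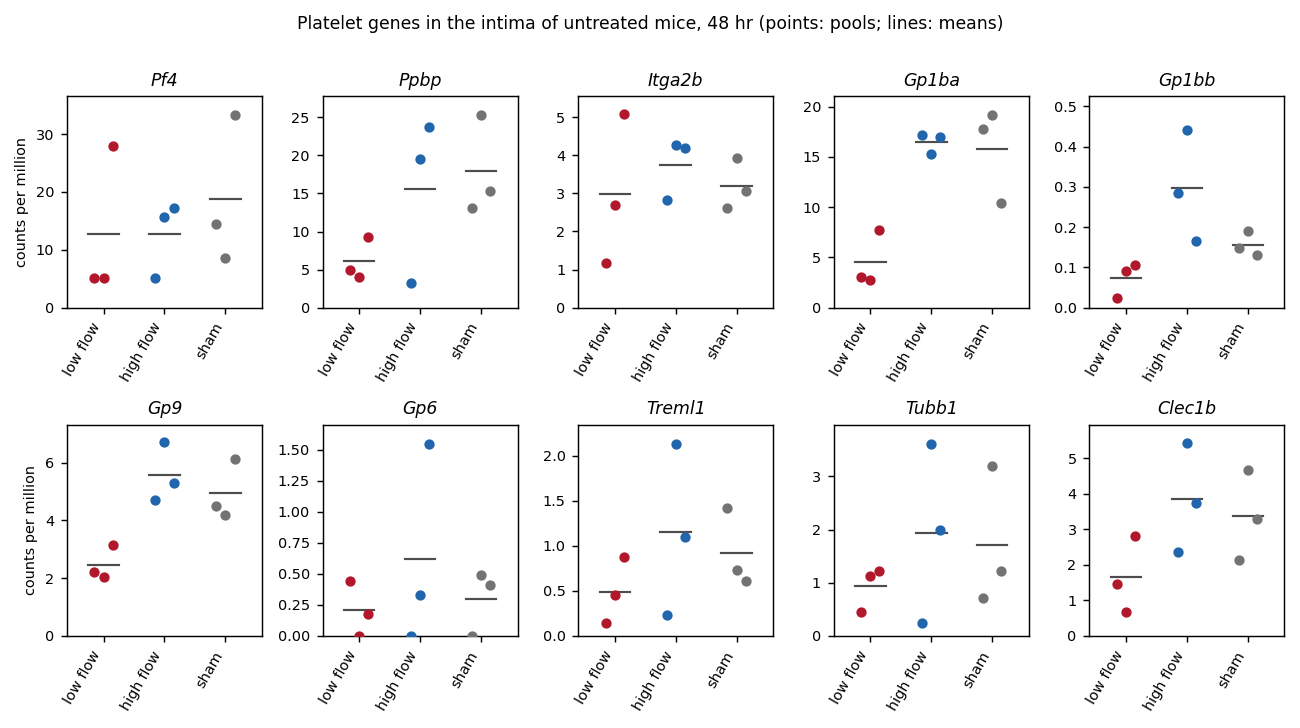
Level of each gene in CPM, on an axis from 0 for each gene, in the 3 low-flow, 3 high-flow and 3 sham pools of untreated mice at 48 hr, with 1 point per pool and a line at each mean. The low-flow points of Gp1ba lie apart from the others, while those of Pf4 lie among them.

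Gp1ba was the only member called of 6 that passed the filter on low counts, where 46.2% of all genes tested were called. Gp1bb, Gp6, Treml1 and Tubb1 did not pass it. Against sham 2 of 6 were called, Gp1ba and Ppbp, beside 40.3% of all genes. Between high flow and sham edgeR called 0 of 6 members and 0% of genes, and 0 members had an unadjusted p under 0.05 or a call by DESeq2. The sum of the 11 endothelial markers was 4298 to 5533 CPM at low flow, 8827 to 10387 at high flow and 8424 to 10860 in sham pools, that of the 16 macrophage markers 2677 to 3851, 165 to 305 and 323 to 838 CPM. The 10 red cell markers summed to 376 to 1662 CPM at low flow, 3042 to 5633 at high flow and 1350 to 3104 in sham pools, and 4 of the 5 tested fell against high flow and 0 against sham. By the test, which scales by TMM, the endothelial markers did not move one way, with 3 up and 2 down of 11 against high flow (median log2 fold-change 0.41) and 2 up and 2 down against sham (median 0.03). Against high flow 7 of 7 neutrophil markers rose (250.7 to 501.5 CPM in sum at low and 7.49 to 24.5 at high flow) and 4 of 4 fat cell markers fell (1.62 to 1.80 and 88.3 to 1369 CPM). The part of these cells in the results for the platelet genes was not tested. In bulk samples fewer cells of a type and less RNA per cell cannot be told apart.

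The chemokine Ppbp had 5.00, 4.06 and 9.30 CPM at low flow (34, 18 and 53 counts), 3.29, 19.5 and 23.8 at high flow (14, 119 and 108 counts) and 13, 25.3 and 15.4 in sham pools (55, 103 and 75 counts). High-flow pool D lay below every low-flow pool, and all sham pools lay above them. The log2 fold-change was −0.71 against high flow (SE 0.51, adjusted p = 0.274 by edgeR) and −0.87 against sham (SE 0.28, adjusted p = 0.0373 by edgeR). Without pool D the first became −1.11 (adjusted p = 0.00493 by edgeR). The call against sham was lost with DESeq2 and without pool A, B, C or H, with adjusted p over all 10 alternatives from 0.0232 to 0.139. It was also absent in a first look at a second run and at the sum of both runs, which are not among the 10. Scaling by total counts in place of TMM moved the median of all genes by −0.62 against high flow and −0.67 against sham on the log2 scale. The genes called higher and lower went from 2652 and 2543 to 1044 and 3084 against high flow, and from 2304 and 2195 to 642 and 2716 against sham. Ppbp then had −1.34 (adjusted p = 0.0413 by edgeR) against high flow.

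Pf4 had 5.15, 5.18 and 27.9 CPM at low flow (35, 23 and 159 counts), 5.16, 15.8 and 17.2 at high flow (22, 96 and 78 counts) and 14.5, 8.61 and 33.4 in sham pools (61, 35 and 163 counts). The groups overlapped and pool C held most of the low-flow counts. The log2 fold-change against high flow was 0.46 (SE 0.46, adjusted p = 0.430 by edgeR), −0.24 without pool C and 0.00 with total-count scaling, so it had no stable direction. Gp9, the small chain of the GPIb complex, had 2.21, 2.03 and 3.16 CPM at low flow, below the 4.69, 6.73 and 5.29 CPM of high flow and the 4.50, 4.18 and 6.15 CPM of sham pools. Scaled by the TMM factors of the tests, the low-flow pools stayed below high flow but overlapped sham, with 3.57, 3.40 and 2.58 CPM beside 3.48, 3.15 and 4.87. It did not pass the test against high flow (adjusted p = 0.201 by edgeR) or sham (adjusted p = 0.457 by edgeR). Itga2b, the integrin chain, ranged over 1.18 to 5.09, 2.82 to 4.27 and 2.61 to 3.94 CPM in low-flow, high-flow and sham pools, and Clec1b over 0.676 to 2.81, 2.35 to 5.42 and 2.13 to 4.67 CPM, with overlap in both.

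At low flow at 48 hr, anti-GPIba against IgG asked what platelet depletion did to intimal RNA. Ppbp and Tubb1 were lower after anti-GPIba, Treml1 and Gp6 had no counts, and Gp1ba was higher. Pf4, Itga2b and Gp9 lay below the IgG pools but did not pass the test, and Gp1bb and Clec1b overlapped them. Of the 9 members that passed the filter 3 were called, beside 16.5% of all genes, and 4 had an unadjusted p under 0.05. The median log2 fold-change of the 9 was −1.13, beside −0.04 over all genes, and it was −1.13 also with the genes at 0 placed at a floor of 3 counts. Each of the 3 calls was lost without any 1 of the 4 libraries (IgG 1, IgG 2, anti-GPIba 1, anti-GPIba 2), where edgeR called 0 members and 1 to 89 genes in all.

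The chemokine Ppbp had 8.98 and 3.73 CPM in the IgG pools (148 and 71 counts) and 0.170 and 0.387 CPM in the anti-GPIba pools (3 and 7 counts). No other artery library of the study had fewer counts of Ppbp than anti-GPIba pool 1. The log2 fold-change was −4.49 (SE 0.93, adjusted p = 0.0219 by edgeR), with −5.18 to −3.74 when 1 library was left out and adjusted p over the 10 alternatives from 1.78e-05 to 0.156. Its neighbour Pf4 had 13.5 and 14.4 CPM with IgG (222 and 275 counts) and 3.85 and 11.0 CPM with anti-GPIba (68 and 199 counts). Both anti-GPIba values were below both IgG values, but the log2 fold-change of −0.94 (SE 0.61, adjusted p = 0.284 by edgeR) did not pass the test and went from −1.89 to −0.37 when 1 library was left out.

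Tubb1, the platelet tubulin, had 12 and 11 counts with IgG (0.728 and 0.578 CPM) and 0 and 0 with anti-GPIba (adjusted p = 0.0480 by edgeR). The IgG level was 7.71-fold that of a floor of 3 counts over the anti-GPIba pools. Such ratios leave out the counting error of the control counts and the spread between pools. Treml1 had 7 and 1 counts with IgG and 0 and 0 with anti-GPIba, a ratio of 2.68 to the same floor (adjusted p = 0.157 by edgeR). Gp6, the collagen receptor, also had 7 and 1 counts with IgG and 0 and 0 with anti-GPIba, and did not pass the filter. For the last 2 genes most of the control counts were in IgG pool 1.

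Gp1ba, which encodes the target of the antibody, had 6.50 and 3.73 CPM with IgG (107 and 71 counts) and 16.3 and 11.1 CPM with anti-GPIba (287 and 200 counts). Both anti-GPIba pools were above both IgG pools. The log2 fold-change was 1.39 (SE 0.38, adjusted p = 0.0371 by edgeR), from 1.06 to 1.83 when 1 library was left out, with adjusted p from 0.00524 to 0.265 over 10 alternatives. Its partner chain Gp9 had 1.76 and 0.630 CPM with IgG (29 and 12 counts) and 0.283 and 0.221 CPM with anti-GPIba (5 and 4 counts), opposite in direction to Gp1ba, with a log2 fold-change of −2.23 (SE 0.93, adjusted p = 0.108 by edgeR), from −2.77 to −1.33 when 1 library was left out. The third chain, Gp1bb, had 15.6 and 4.14 counts with IgG and 4.61 and 5.95 with anti-GPIba, and the groups overlapped.

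Itga2b had 6.37 and 10.9 CPM with IgG (105 and 208 counts) and 2.21 and 5.87 CPM with anti-GPIba (39 and 106 counts), without overlap but with a log2 fold-change of −1.13 (SE 0.55, adjusted p = 0.156 by edgeR), from −2.01 to −0.59 when 1 library was left out. Clec1b had 0.971 and 0.263 CPM with IgG (16 and 5 counts) and 1.64 and 0.775 CPM with anti-GPIba (29 and 14 counts), and the pools overlapped.

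**Figure D2:**
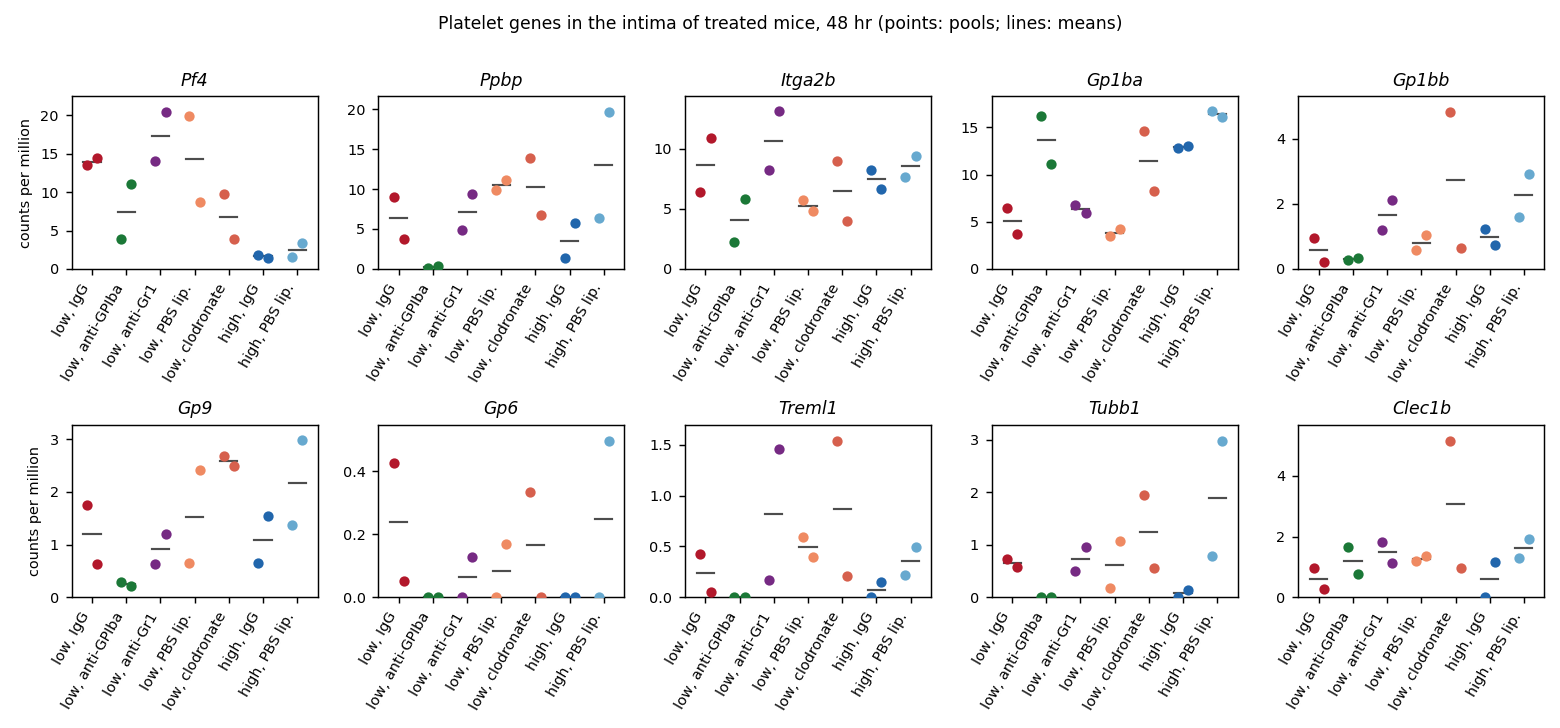
Level of each gene in CPM in the low-flow and high-flow pools of treated mice at 48 hr, with 1 point per pool and a line at each mean. In the anti-GPIba pools Treml1, Tubb1 and Gp6 lie at 0 and Gp1ba lies above the IgG pools.

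Marker sums of other cells differed between the same pools. The 11 endothelial markers summed to 4623 to 5282 CPM with IgG and 8818 to 9188 with anti-GPIba, the 16 macrophage markers to 2685 to 2878 and 323 to 443, the 10 neutrophil markers to 137 to 398 and 7.93 to 15.4, the 7 smooth muscle markers to 4370 to 4724 and 724 to 1021, and the 10 red cell markers to 435 to 774 and 1057 to 1227. By the test 2 of 11 endothelial markers rose and 0 fell, with a median log2 fold-change of 0.24. With IgG and with anti-GPIba none of the endothelial or macrophage markers was at 0 in a pool. The part of these cells in the results for the platelet genes was not tested. Of 17 other platelet and megakaryocyte genes 14 were tested, 0 rose and 2 fell, a share near the 16.5% of all genes called, with a median log2 fold-change of −1.59. P2ry12, the ADP receptor, had 6.92 to 7.46 CPM with IgG and 0.340 to 0.553 with anti-GPIba (log2 fold-change −4.01, SE 1.16, adjusted p = 0.0400 by edgeR). Nfe2, a megakaryocyte transcription factor, had 7.51 to 11.3 and 2.10 CPM (log2 fold-change −2.19, SE 0.56, adjusted p = 0.0326 by edgeR). Both calls were lost without any 1 of the 4 libraries, with adjusted p from 0.0805 to 0.21 for P2ry12 and 0.0903 to 0.174 for Nfe2 by edgeR. Gp5, the fourth gene of the GPIb-IX-V complex, had 13 and 14 counts with IgG and 0 with anti-GPIba, and did not pass the test (adjusted p = 0.0613 by edgeR). Of 12 platelet genes shared with leukocytes 6 fell, and of 12 shared with endothelium 1 rose and 1 fell, the latter again near the 16.5% of all genes.

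The other depletions asked whether the members moved after agents against other blood cells. Anti-Gr1 pools held 249 and 322 counts of Pf4, 85 and 147 of Ppbp, 145 and 207 of Itga2b, 119 and 94 of Gp1ba and 9 and 15 of Tubb1. In these 5 genes the pools overlapped those of IgG. Gp1bb had 1.19 and 2.11 CPM with anti-Gr1 and 0.945 and 0.217 with IgG, and Clec1b 1.81 and 1.14 beside 0.971 and 0.263, both without overlap (adjusted p = 0.420 and 0.580 by edgeR). Against IgG edgeR called 0 of 9 members and 0% of genes, and 0 members had an unadjusted p under 0.05 or a call by DESeq2. Of the 10 neutrophil markers tested 0 were called, at a median of −3.06 on the log2 scale, and the markers summed to 20.6 to 39.9 CPM with anti-Gr1 and 137 to 398 with IgG. Clodronate pools held 207 and 98 counts of Ppbp (13.9 and 6.77 CPM), beside 167 and 198 counts with PBS liposomes (9.92 and 11.1 CPM), and 29 and 8 counts of Tubb1 beside 3 and 19. In both genes the groups overlapped. edgeR called 0 of 9 members, beside 0.119% of genes, a share that was not stable when 1 library was left out. DESeq2 called 1, Gp1ba, the 1 member with an unadjusted p under 0.05 by edgeR. Gp1ba had 14.7 and 8.22 CPM with clodronate (219 and 119 counts) and 3.44 and 4.27 with PBS liposomes (58 and 76 counts), without overlap, with a log2 fold-change of 1.46 (SE 0.39, adjusted p = 0.165 by edgeR). By DESeq2 the adjusted p was 0.0191, and by edgeR without clodronate pool 2 it was 0.0381. Pf4 had 9.70 and 3.94 CPM with clodronate and 20.0 and 8.70 with PBS liposomes, which overlap, and did not pass the test (log2 fold-change −1.19, SE 0.62, adjusted p = 0.381 by edgeR, from −1.95 to −0.46 when 1 library was left out). Gp9 had 2.67 and 2.49 CPM with clodronate and 0.653 and 2.41 with PBS liposomes, without overlap (adjusted p = 0.740 by edgeR). The further pools of 100 bp reads, 1 of each kind and so without a test, had 42.0 counts of Gp1ba with clodronate and 17 with PBS liposomes (7.12 and 3.25 CPM). Their other values were 60 and 37 counts for Ppbp (10.2 and 7.08 CPM), 109 and 150 for Pf4 (18.5 and 28.7 CPM) and 13 and 3 for Clec1b (2.20 and 0.574 CPM). Gp1ba, Ppbp and Clec1b thus had the higher value in the clodronate pool and Pf4 in the PBS liposome pool. The sum of the macrophage markers was 332 to 352 CPM with clodronate and 1524 to 2471 with PBS liposomes, that of the endothelial markers 5697 to 8025 and 4088 to 4268 and that of the red cell markers 891 to 1999 and 1635 to 1685, and their part was not tested.

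**Figure D3:**
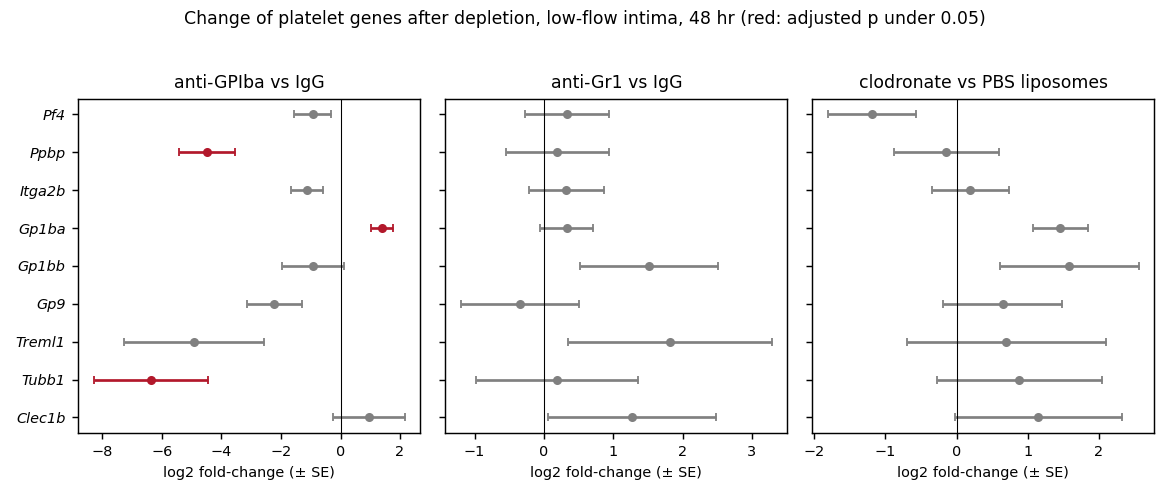
Log2 fold-change of each gene at low flow at 48 hr for anti-GPIba and anti-Gr1 against IgG and for clodronate against PBS liposomes, with bars of 1 SE and calls in red. The points of Treml1 and Tubb1 for anti-GPIba rest on 0 counts after depletion, so their size depends on the prior count and should not be read.

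The anti-GPIba effect was set against the clodronate effect in 1 fit. The log2 difference for Ppbp was −4.35 (SE 1.18, unadjusted p = 0.0034, adjusted p = 1.00 by edgeR), and edgeR called 0 of 9 members and 0% of genes, and by edgeR 3 had an unadjusted p under 0.05. DESeq2 called 0 members. The 2 effects are therefore not shown to differ for any member at the adjusted threshold. Anti-GPIba against anti-Gr1, at the same flow, gave for Ppbp a log2 fold-change of −4.68 (SE 0.94, adjusted p = 0.106 by edgeR, 3.68e-05 to 0.73 over 10 alternatives) and for Gp1ba 1.06 (SE 0.38, adjusted p = 0.364 by edgeR). Against a floor of 3 counts over the anti-GPIba pools, the anti-Gr1 level was 9.27-fold for Treml1 (26 counts) and 8.56-fold for Tubb1 (24 counts). These ratios too leave out the counting error of the anti-Gr1 counts. edgeR called 0 of 9 members and 0% of genes. By edgeR 6 members had an unadjusted p under 0.05. DESeq2 called 1 member, Ppbp.

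Flow was also compared in treated mice, where flow and run cannot be told apart. Pf4 had 13.5 and 14.4 CPM at low flow with IgG and 1.87 and 1.40 at high flow (23 and 19 counts), and with PBS liposomes 20.0 and 8.70 at low flow and 1.52 and 3.34 at high flow (21 and 47 counts). In both pairs low flow was above high flow without overlap, with log2 fold-changes of 3.01 (SE 0.68, adjusted p = 0.0061 by edgeR) and 2.68 (SE 0.66, adjusted p = 0.0101 by edgeR). The second call was lost without PBS low-flow pool 1 (adjusted p = 0.0744 by edgeR) or PBS high-flow pool 1 (adjusted p = 0.101 by edgeR). Gp1ba had 12.9 and 13 CPM at high flow with IgG and 16.7 and 16.1 with PBS liposomes, above its low-flow values, with log2 fold-changes of −1.43 (SE 0.39, adjusted p = 0.0136 by edgeR) and −1.98 (SE 0.39, adjusted p = 0.0037 by edgeR). With IgG this call was lost without IgG low-flow pool 2 (adjusted p = 0.130 by edgeR). With IgG and with PBS liposomes 2 of 9 members were called, beside 40.5% and 35% of genes. In both pairs fewer genes were called when 1 library was left out. Ppbp did not pass the test in either pair, with 1.30 and 5.73 CPM at high flow with IgG and 6.43 and 19.6 with PBS liposomes. Tubb1 had 12 and 11 counts at low flow and 0 and 2 at high flow with IgG, without overlap (adjusted p = 0.136 by edgeR), but 3 and 19 beside 11 and 42 with PBS liposomes, where the CPM overlapped. Gp6 had 7 and 1 counts at low flow with IgG and 0 at high flow, and did not pass the filter. With PBS liposomes Itga2b (5.70 and 4.83 CPM beside 7.65 and 9.44) and Gp1bb (9.54 and 18.7 counts beside 22.2 and 41.2) were below high flow without overlap, and neither passed the test (adjusted p = 0.421 and 0.314 by edgeR). The macrophage markers summed to 221 to 556 CPM at high flow with IgG and 296 to 366 with PBS liposomes, and the endothelial markers to 13551 to 13802 and 9550 to 11985. By the test 2 endothelial markers were higher and 5 lower at low flow with IgG, and 2 higher and 4 lower with PBS liposomes. The red cell markers summed to 825 to 1175 and 452 to 2704 CPM at high flow, and the part of these cells was not tested.

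Anti-GPIba pools at low flow were compared with IgG pools at high flow, again across runs. Gp1ba had 16.3 and 11.1 CPM in the former and 12.9 and 13 in the latter, which overlap, with a log2 fold-change of −0.04 (SE 0.38, adjusted p = 0.969 by edgeR) whose sign changed with total-count scaling and without anti-GPIba pool 2 or IgG high-flow pool 2. Pf4 had 3.85 and 11.0 CPM beside 1.87 and 1.40, with a log2 fold-change of 2.07 (SE 0.66, adjusted p = 0.0746 by edgeR) that went from 1.12 to 2.64 when 1 library was left out, and it was called by DESeq2 (adjusted p = 0.0166). Treml1 and Tubb1 each had 0 counts over the anti-GPIba pools and 2 over the IgG high-flow pools. Gp6 had 0 in both, and the groups overlapped for these genes. Ppbp was lower after anti-GPIba (0.170 and 0.387 CPM beside 1.30 and 5.73), with a log2 fold-change of −3.75 (SE 0.93, adjusted p = 0.0344 by edgeR). It was the 1 member called of 9, beside 7.7% of genes, and the call was lost without any 1 of the 4 libraries (IgG high 1, IgG high 2, anti-GPIba 1, anti-GPIba 2), with log2 fold-changes from −4.45 to −2.27 (the latter without IgG high 2) and adjusted p from 0.0623 to 0.2 by edgeR, and when these groups were fitted alone.

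At 7 d the Rbfox2 EC-KO mice and their controls were compared at each flow. In none of the 5 comparisons did edgeR call any of the 8 members tested, with 0 at an unadjusted p under 0.05 and 0 called by DESeq2, beside 0%, 0.00749%, 2.4%, 1.09% and 0% of genes called for EC-KO at low flow, EC-KO at high flow, flow in controls, flow in EC-KO and the difference of the EC-KO effects. Without control low-flow library 1, edgeR called 1476 genes for EC-KO at low flow and 3897 for flow in controls, in place of 0 and 320. Flow in controls gave 3 to 52 without any other of its libraries, and flow in EC-KO gave 1 to 15 without any 1 library, in place of 146. In all these fits 0 members were called. Gp6 and Treml1 did not pass the filter. Ppbp had 3.26, 4.50 and 0.581 CPM in control low-flow libraries 1, 4 and 5 (54, 62 and 6 counts) and 5.42, 1.14 and 0.937 in EC-KO low-flow libraries 1, 4 and 5 (101, 14 and 13 counts), and 5.37 and 0.711 CPM in control and 1.14 and 1.11 CPM in EC-KO high-flow libraries 4 and 5. The groups overlapped. Gp1ba spread widely among replicates, with 12.5, 0 and 2.52 CPM in the control low-flow libraries (207, 0 and 26 counts) and 12.8, 2.19 and 5.26 CPM in the EC-KO ones (238, 27 and 73 counts). The 2 libraries numbered 1, of the same run set, were the highest in each. At high flow Gp1ba had 13.9 and 8.53 CPM in controls and 18.0 and 13.1 in EC-KO. It was higher in the EC-KO library in all 5 pairs with the same flow and number, though the numbers are not shown to pair libraries. With the number as a block the log2 fold-change was 1.13 at low flow (SE 0.93, adjusted p = 0.622 by edgeR) and 0.39 at high flow (SE 1.04, adjusted p = 1.00 by edgeR), and neither passed the test. Tubb1 had 23, 0 and 0 counts in the control low-flow libraries and 38, 3 and 0 in the EC-KO ones, and again the libraries numbered 1 held nearly all of them. Between flows, Itga2b in controls had 7.48, 8.14 and 12.7 CPM at low and 6.38 and 0.178 at high flow, and Clec1b 0.965, 0.436 and 0 beside 1.77 and 1.07, both without overlap (adjusted p = 0.398 and 0.567 by edgeR). In EC-KO, Gp1ba was lower at low than at high flow without overlap (adjusted p = 0.687 by edgeR). With the replicate number as a block, 3 members in controls and 2 in EC-KO had an unadjusted p under 0.05 for flow, and 0 were called.

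The cultures held no replicates, so counts are given with exact 95% Poisson intervals and no test. In the endothelial line, Ppbp had 0 counts untreated (0 to 3.69), 2 with plasma (0.242 to 7.22), 117 with platelets and macrophages (96.8 to 140) and 80 with all additions (63.4 to 99.6). Pf4 had 1 and 0 counts untreated and with plasma, 25 with platelets and macrophages (16.2 to 36.9) and 123 with all 3 additions (102 to 147). Within the line, both chemokine genes were thus highest in the 2 cultures given platelets with macrophages, Ppbp in the one without plasma and Pf4 in the one with it. No culture was given platelets alone, so the parts of the 2 cell types cannot be told apart. Tubb1 and Gp6 had 0 counts in all 4 line cultures, those given platelets with macrophages included, and Treml1 in 3 of 4. Itga2b had 80, 171, 117 and 87 counts in the untreated, plasma, platelet with macrophage and all-additions cultures, and Gp1ba 16, 19, 11 and 6.

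**Figure D4:**
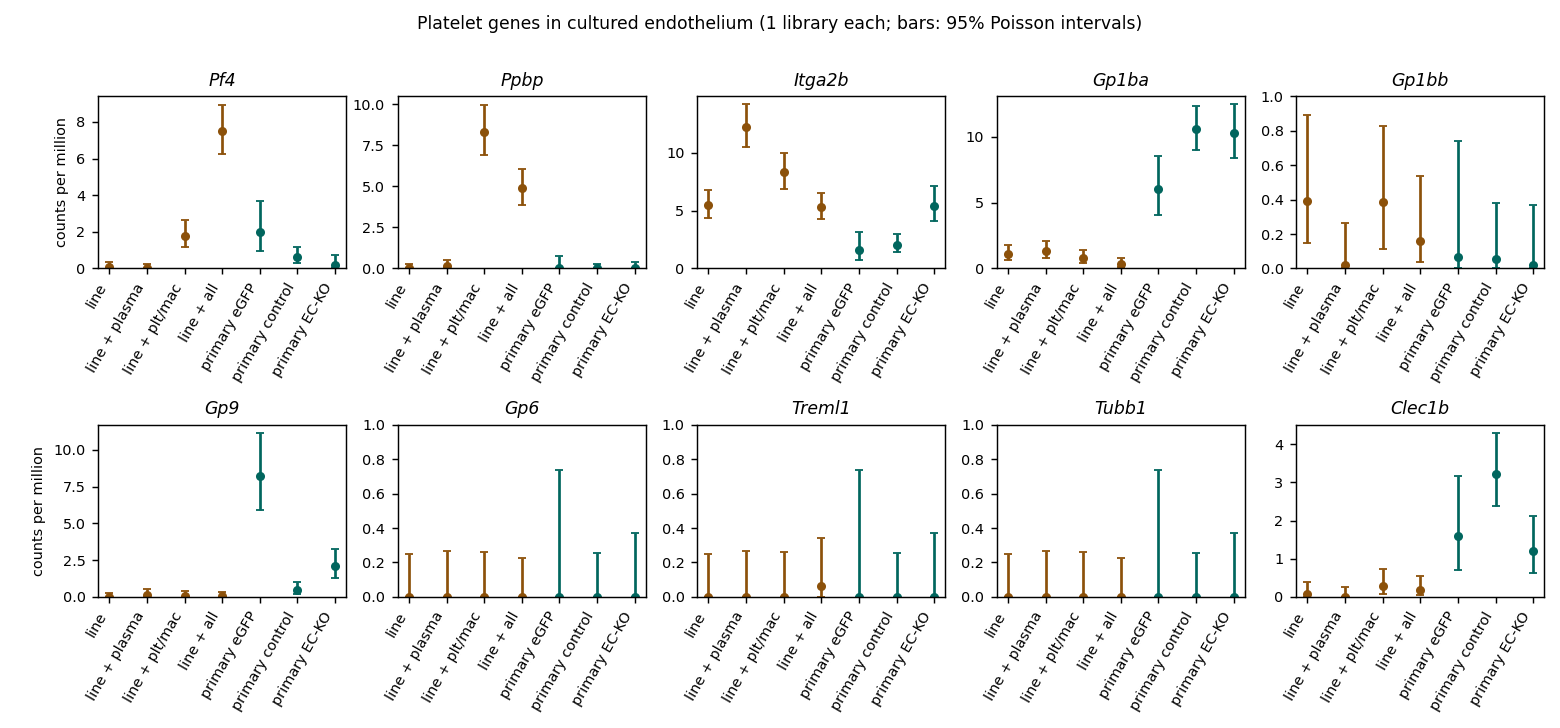
Level of each gene in CPM in the 4 cultures of the endothelial line and the 3 primary cultures, with exact 95% Poisson intervals as bars (plt/mac stands for platelets and macrophages). Ppbp is at 0 in the primary cultures and highest in the line with platelets and macrophages, at 8.33 CPM.

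In the 3 primary cultures Ppbp, Gp6, Treml1 and Tubb1 had 0 counts, which allows up to 3, but Gp1ba did not. Gp1ba had 30 counts in eGFP+ cells (20.2 to 42.8), 154 in Rbfox2 control cells (131 to 180) and 102 in EC-KO cells (83.2 to 124), or 6.01, 10.6 and 10.3 CPM, in the range of the artery libraries. Gp9 had 41, 7 and 21 counts, Clec1b 8, 47 and 12 and Itga2b 8, 30 and 54 in the same cultures, whose totals were 4989843, 14556377 and 9931356. In CPM, Gp9 in eGFP+ cells was above every artery library. Pf4 had 10 counts in eGFP+ cells (4.80 to 18.4), 9 in control cells (4.12 to 17.1) and 2 in EC-KO cells.

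Across the 35 artery libraries the members fell into unlike patterns. Spearman's rho of CPM, given as a description because the libraries share runs, depth and groups, was 0.848 for Ppbp and Treml1, 0.817 for Ppbp and Gp9, 0.734 for Treml1 and Tubb1 and 0.728 for Ppbp and Tubb1. Pf4 and Ppbp, the neighbours, had 0.567. Gp1ba ranged from −0.195 with Itga2b and −0.141 with Pf4 over 0.242 with Ppbp to 0.535 with Clec1b. Itga2b had 0.411 with Gp1bb and from −0.364, with Gp9, to 0.0145 with the others. With the sum of the endothelial markers Gp1ba had a rho of 0.790 over 35 libraries, 0.900 over the 11 of 100 bp reads and 0.891 over the 10 low-flow libraries of treated mice. Ppbp had −0.0756, 0.773 and −0.455 in the same sets, and Clec1b and Treml1 had 0.818 and 0.664 over the 11. With the sum of the macrophage markers over the 35 Gp1ba had −0.736. Pf4 had 0.552 with smooth muscle, 0.425 with red cell, 0.388 with neutrophil, 0.351 with macrophage and −0.433 with endothelial markers over the 35. With the sum of the red cell markers Clec1b had 0.669, Gp9 0.619, Treml1 0.616, Ppbp 0.546, Gp1ba 0.485 and Itga2b −0.346 over the 35, and Gp9 had 0.945 over the 11. With the other platelet and megakaryocyte genes Gp1ba had 0.530, Gp9 0.471, Ppbp 0.415 and Itga2b −0.338 over the 35, and the remaining members 0.155 to 0.386. Over the 10, Gp1ba had −0.418 and Ppbp 0.491.

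**Figure D5:**
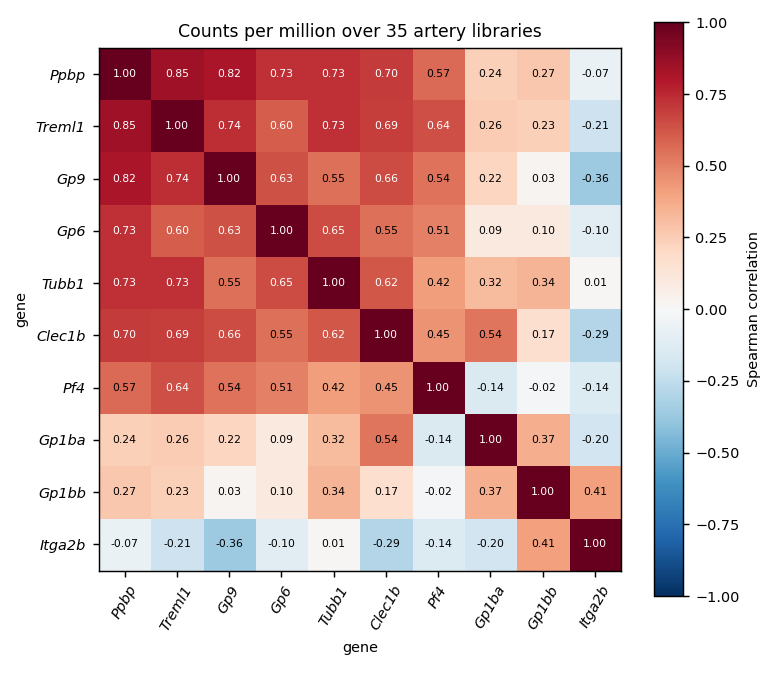
Spearman's rho of CPM between each pair of genes over the 35 artery libraries, on a colour scale. Ppbp, Gp9, Gp6, Treml1, Tubb1 and Clec1b have values of 0.550 to 0.848 with one another, while Gp1ba and Pf4 have −0.141.

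Likeness was also sought for members with at least 10 counts in 50% of these libraries, again over 35 libraries as a description. The 12549 genes compared had a mean count of at least 10 over these libraries, which leaves out Treml1, Tubb1 and Gp6. The genes most like Gp1ba were Gatsl3 (rho 0.907), Tcn2 (0.906), Cytl1 (0.899), Tm6sf2 (0.898) and Gnptg (0.892). Among the genes compared, most like Ppbp was Gp9 (0.817), followed by 9130011J15Rik (0.716), G530011O06Rik (0.716), Clec1b (0.699) and Tnfaip8 (0.690). Most like Pf4 were 2200002D01Rik (0.827), Gm11428 (0.822), Ccl7 (0.821), Qtrt1 (0.816) and Ednrb (0.810). Most like Itga2b was Axl (0.793), most like Gp9 was Tspan6 (0.858) and most like Clec1b was BC013529 (0.785).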

How the data were processed

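Intimal and endothelial RNA was amplified with a SMARTer low-input kit and sequenced. The authors aligned reads to mm9 and the deposited table holds RSEM expected counts per gene; the submitters' processing notes name STAR 2.5.1b and RSEM 1.2.15, while the sources differ on the aligner of the untreated 48 hr pools. The effective length was taken from the same deposited table as another value and served for FPKM. Of 204 value columns, 45 columns of expected counts were used and 159 were not. Of 21675 entries, 1 names no gene and was left out. Counts (5.20% to 19.3% not whole per library) were rounded. edgeR 4.0.16 (R 4.3.3; filterByExpr, TMM, quasi-likelihood test, Benjamini-Hochberg over all genes tested, threshold 0.05) gave the tests, with the untreated 48 hr groups fitted pair by pair and the groups of treated mice, and those at 7 d, each in 1 fit, and DESeq2 1.42.0 was an alternative; the fit was tested on simulated data. Libraries sequenced more than once entered with 1 run, the first of the 48 hr pools and the deeper of 2 libraries at 7 d. Low-flow EC-KO and control libraries with the same number at 7 d correlated in their deviations from the group mean (r = 0.528, 0.198 and 0.367 for the 3 pairs). Same-numbered libraries of different treatments at 48 hr reached 0.539, and differently numbered ones were not compared. The numbers are thus not shown to pair libraries. Every gene of the 10 was named; likeness took the 5 genes with highest Spearman's rho. The members and marker lists were chosen with earlier results of these data known. Figures used matplotlib 3.10.9.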

Additional observations from a re-analysis of the deposited data

How the results depend on the processing

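Expected counts of many members are below 10, groups hold 2 or 3 pools, and calls of members changed with the settings. Against high flow in untreated mice, 1 member was called, 2 with total-count scaling (chosen after seeing the data) and 1 to 2 without 1 pool. Against sham 2 were called, 1 with DESeq2 and 0 to 2 without 1 pool. For anti-GPIba against IgG 3 became 0 to 0 without 1 pool. For clodronate 0 became 1 with DESeq2 and 0 to 1 without 1 pool. Flow with IgG gave 2, and 1 to 2 without 1 pool, as did flow with PBS liposomes. For anti-GPIba against anti-Gr1, 0 became 1 without the filter, with DESeq2 or with the groups fitted alone, and 0 to 1 without 1 pool. Against IgG high flow, 1 became 2 with DESeq2 (Pf4 added), 0 with the groups alone and 0 to 0 without 1 pool. The log2 fold-change of Pf4 in untreated mice was −0.24 without pool C and ranged from −0.24 to 0.72 without 1 pool. That of Gp1ba for anti-GPIba against IgG high flow became 0.079 with total-count scaling and ranged from −0.33 to 0.21 without 1 pool. Why these values changed was not tested. Where leaving out a pool left 1 in a group, that pool is assumed to vary like the other groups. The second run and the sum of both runs were planned for the untreated 48 hr pools and the libraries at 7 d sequenced again. These alternatives were left out because the repeat columns could not be tied to single samples, a limit shared by columns of the same groups that were used. They were left out after a first look at them, in which Ppbp was not called against sham in either. Scaled by TMM, eGFP+ cells had 8.64 CPM of Gp1ba and 11.8 of Gp9.

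The replicate block changed no call of a member (3 for anti-GPIba against IgG), while genes called in all went from 16 to 64 for clodronate, 0 to 4 for anti-GPIba against anti-Gr1, 1 to 4 for EC-KO at high flow, 320 to 2940 for flow in 7 d controls and 146 to 1317 in EC-KO. Same-numbered libraries correlated at −0.165 to 0.539 at 48 hr and −0.0482 to 0.528 at 7 d. The numbers are not shown to pair libraries, and for low-flow EC-KO against control 0 genes were called with and without the block. No paired analysis was possible for the untreated pools because their letters could not be tied to the replicate numbers of the sample titles. DESeq2 called 3683 genes for anti-GPIba against IgG (2216 by edgeR), 462 for clodronate, 142 for anti-Gr1, 101 for high flow against sham, 354 for anti-GPIba against anti-Gr1, 2173 for anti-GPIba against IgG high flow, and 2207 and 948 for flow at 7 d in controls and EC-KO, and 11, 29 and 21 for EC-KO at low flow, at high flow and their difference (0, 1 and 0 by edgeR). With the groups alone, 4449, 225, 0 and 2003 were called for anti-GPIba, anti-Gr1, clodronate and anti-GPIba against IgG high flow, 71 for anti-GPIba against anti-Gr1, and 3 and 858 for flow at 7 d in controls and EC-KO. Without the filter 92 were called for clodronate, 76 for anti-GPIba against anti-Gr1 and 63 for high flow against sham.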
